A study of Homo sapiens with 6 samples.

Results

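The bone morphogenetic protein (BMP) pathway and its inhibitor of DNA binding (ID) targets were examined in MCF10A, a nonmalignant breast epithelial cell line that is widely used as a model of human mammary epithelium, after knockdown of the RasGAP gene DAB2IP. 10 genes were taken from the 58735 genes of the deposited count table by their names: ID1, ID2, ID3 and ID4, the ligands BMP2 and BMP4, the receptors BMPR1A and BMPR2, and the inhibitors SMAD6 and GREM1. The siControl group consisted of 3 libraries from wild-type cells given a nontargeting siRNA pool, and the siDAB2IP group consisted of 3 libraries from the same line given siRNA against DAB2IP. All cells grew in medium with horse serum, insulin, epidermal growth factor, cholera toxin and hydrocortisone, and RNA was collected 48 hours after transfection. Both groups therefore come from 1 cell line and 1 time point, and the knockdown was transient. The labels do not say whether the 3 libraries of a group came from separate cultures, so p-values measure the spread between these libraries, which may be technical.

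BMPs are secreted dimers that bring type I and type II receptors together. The type I receptor then phosphorylates SMAD1, SMAD5 and SMAD9, which enter the nucleus with SMAD4 and induce genes that include the ID genes and the inhibitory SMADs. ID proteins carry a helix-loop-helix part but no DNA-binding region, so they pair with E proteins and keep these off their target sites. In mammary epithelium, ID1 is known for opposing differentiation, and BMP ligands are known for acting on both the epithelium and its stem cells.

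The 4 ID genes are paralogs, and the stretch of 40 codons in which their coding sequences are most alike is given here because it shows what the family shares and how far its reads can be told apart. Capitals mark the 68 of 120 bases that are identical in ID1, ID2, ID3 and ID4. The sequences are from GENCODE release 29 transcripts on GRCh38, read along the coding strand.
ID1, chr20:31605586-31605705, plus strand: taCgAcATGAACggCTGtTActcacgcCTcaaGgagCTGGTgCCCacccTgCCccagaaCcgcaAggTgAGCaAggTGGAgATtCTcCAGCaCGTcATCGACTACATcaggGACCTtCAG
ID2, chr2:8682274-8682393, plus strand: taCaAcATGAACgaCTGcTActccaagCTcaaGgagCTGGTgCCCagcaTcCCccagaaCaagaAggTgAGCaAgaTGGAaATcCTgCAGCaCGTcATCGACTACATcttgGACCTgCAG
ID3, chr1:23559184-23559303, minus strand: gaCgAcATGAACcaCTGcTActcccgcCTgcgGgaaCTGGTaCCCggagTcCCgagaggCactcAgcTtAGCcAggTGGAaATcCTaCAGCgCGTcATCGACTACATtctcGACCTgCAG
ID4, chr6:19837950-19838069, plus strand: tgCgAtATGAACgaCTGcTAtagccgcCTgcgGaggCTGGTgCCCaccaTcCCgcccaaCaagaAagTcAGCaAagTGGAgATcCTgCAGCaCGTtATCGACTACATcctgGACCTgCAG
In this stretch ID1 and ID2 were the closest pair, with 83.3% identical bases, and ID1 and ID3 the most distant, with 69.2%. The longest run that any pair had in common there was 21 bases, between ID1 and ID2. Of all runs of 50 bases in the annotated transcripts, 0% of those of ID1, ID3 and ID4 and 0.651% of those of ID2 also occurred in a transcript of another gene. For BMPR1A this share was 12.4%, mostly from the pseudogenes BMPR1AP1 and BMPR1AP2, so its counts are less certain than those of the ID genes.

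The knockdown was visible in every library. DAB2IP was at 103, 94.1 and 77.3 CPM (counts scaled to library size with the TMM factors of edgeR) in the siControl libraries and at 27.4, 25.5 and 22.3 CPM in the siDAB2IP libraries, without overlap (log2 fold change −1.86, edgeR adjusted p = 9.71e-05). Libraries held between 16353783 and 21916062 counts, and 15430 genes passed the filter on low counts and were tested with the quasi-likelihood test of edgeR. A gene was called risen or fallen where its p, adjusted by Benjamini-Hochberg over these 15430 genes, was under 0.05. The log2 fold change (log2 FC) of siDAB2IP over siControl is given with its standard error (SE). The markers of the labeled cell type were present, with all 6 basal mammary markers tested, whereas the leukocyte gene PTPRC had at most 4 counts, CD3E and PGR had 0 counts and ESR1 had at most 11 counts in any library. The summed level of the basal markers was 2178 to 2757 FPKM (fragments per kilobase of gene length, scaled to the library total) in siControl and 1116 to 1496 FPKM in siDAB2IP. Of these markers KRT5, KRT14 and KRT17 fell, and TP63, ITGA6 and ITGB4 were not called. The part of this shift in the results that follow was not tested. The epithelial markers EPCAM, CDH1, KRT8 and KRT18 were not called, and their summed level was 138 to 160 FPKM in siControl and 111 to 163 FPKM in siDAB2IP. The summed level of 4 endothelial markers was 3.27 to 4.69 FPKM in siControl and 2.08 to 2.29 FPKM in siDAB2IP, that of 7 fibroblast markers was 12.9 to 23.0 and 11.8 to 16.7 FPKM, and that of 4 leukocyte markers, of which CD14 was the only one tested, was 19.0 to 36.8 and 25.9 to 40.5 FPKM. Of the tested markers in these lists, KDR fell and COL1A1 rose. PECAM1, CDH5, VWF, PDGFRB, DCN and CD14 were not called. In such bulk RNA, fewer cells that express a gene and less RNA of it per cell cannot be told apart.

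With DAB2IP knockdown, the ligand gene BMP2 rose 1.88-fold, ID1 was 1.34-fold higher without passing the threshold, and the other genes of the set gave no call in either direction. 8 of the 10 genes passed the filter on low counts. Of these 8, 1 rose and 0 fell, against 6.55% of all genes tested that rose and 7.65% that fell (14.2% in either direction), so the count is near the background. An unadjusted edgeR p under 0.05 was reached by 2 higher and 0 lower members, against 30.0% of all genes in either direction. BMP2 and ID1 were the 2 members whose siDAB2IP libraries all exceeded the siControl libraries, against 17.6% of all genes, and 0 members lay wholly below, against 18.3%, or 35.9% of all genes without overlap in either direction. The median log2 fold change of the 8 genes was 0.22, against 0.01 for all genes tested. With the replicate number as a block, 2 of the 8 genes rose, BMP2 and ID1, against 9.59% of all genes that rose in that fit and 21.0% called in either direction. DESeq2 also called these 2 members higher and 0 lower, where it called 16.6% of all genes.

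**Figure D1:**
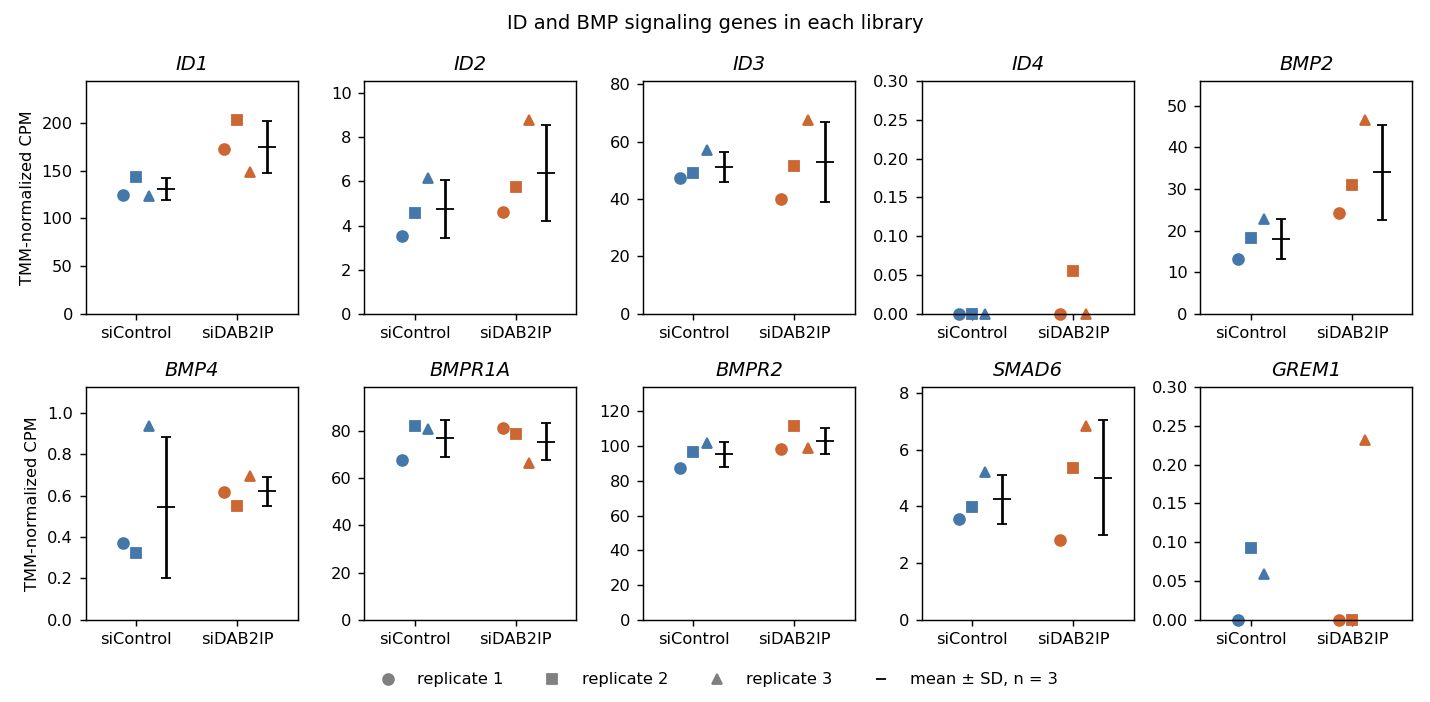
TMM-normalized CPM (y axis, from 0) of the 10 genes in the 3 siControl (blue) and 3 siDAB2IP (orange) libraries, with 1 symbol per replicate number and a black bar for the mean ± SD (n = 3), omitted for ID4 and GREM1. For BMP2 and ID1 each siDAB2IP library lies above each siControl library, and for the other genes the groups overlap.

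Gene positions are given on GRCh38. Among the ligands, BMP2 lies on chromosome 20 from 6767664 to 6780280, on the plus strand, and overlaps no other gene of the table. Its expression was 13.2, 18.2 and 22.8 CPM in the siControl libraries and 24.2, 31.1 and 46.7 CPM in the siDAB2IP libraries, from 212 to 393 and from 430 to 806 counts. The lowest knockdown library was just above the highest control library, and replicate 3 was the highest of each group. The means were 18.1 ± 4.81 and 34.0 ± 11.5 CPM (SD, n = 3), and the fitted log2 FC was 0.91 (SE 0.25, 95% interval 0.35 to 1.47, edgeR adjusted p = 0.0383). Within libraries of the same replicate number the log2 ratio was 0.88, 0.77 and 1.03, so the ratio varied less than the levels did. In the fit blocked on replicate number the log2 FC was 0.89 (edgeR adjusted p = 0.00141).

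The BMP2 call was lost when 1 library was left out in 5 of 6 cases. Omitting siControl replicate 1 gave an edgeR adjusted p of 0.14, omitting siControl replicate 2 gave 0.13 and omitting siControl replicate 3 gave 0.0509. Omitting siDAB2IP replicate 2 gave 0.0589 and omitting siDAB2IP replicate 3 gave 0.0507, whereas the call was kept at 0.0201 when siDAB2IP replicate 1 was omitted. The log2 fold change across these fits was between 0.61 and 1.10. On FPKM with limma the call was also lost, with adjusted p between 0.0803 and 0.217.

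BMP4, the other ligand gene of the set, lies on chromosome 14 from 53949736 to 53958761 on the minus strand. It had 6, 7 and 16 counts in the siControl libraries and 11, 10 and 12 counts in the siDAB2IP libraries. The groups overlapped, and the log2 FC was 0.21 with a 95% interval of −0.88 to 1.30 (edgeR adjusted p = 0.82). At this depth, a difference as large as that of BMP2 was neither shown nor excluded. Per gene length, BMP2 was the more abundant of the pair, at 20.8 to 57.5 times the FPKM of BMP4 across the 6 libraries.

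**Figure D2:**
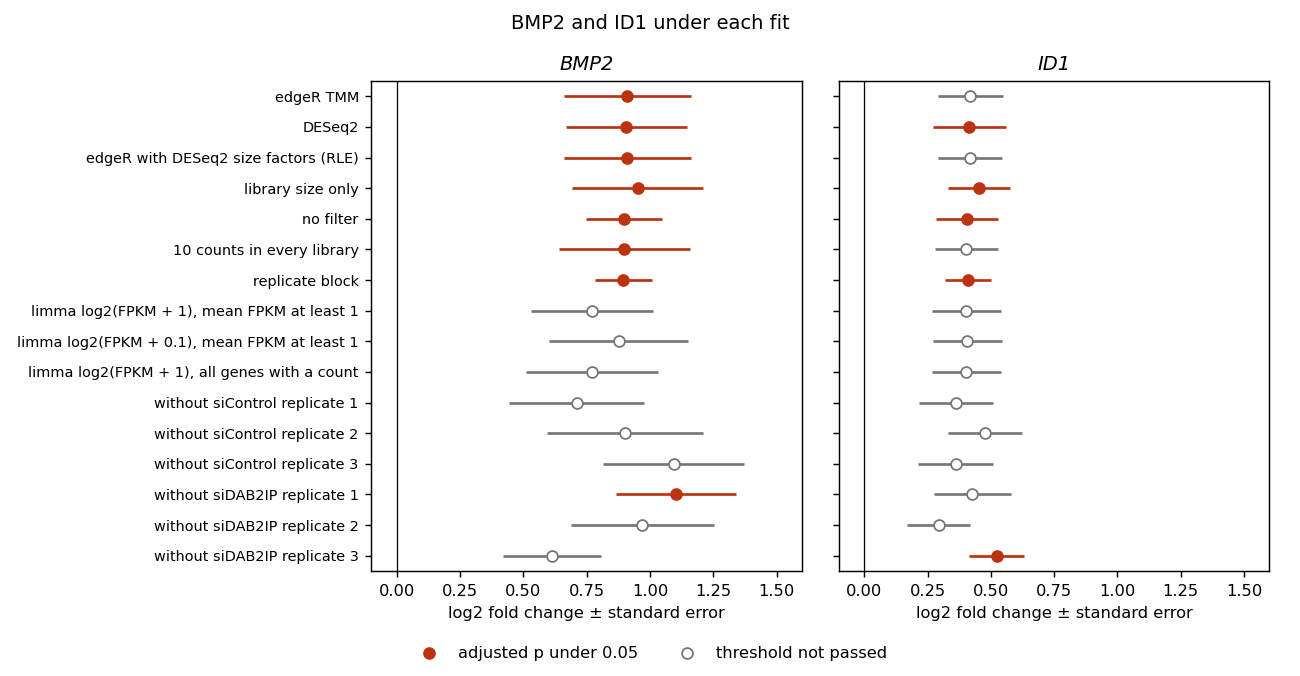
Log2 fold change of BMP2 (left) and ID1 (right) for siDAB2IP against siControl under 16 fits, with bars for the standard error and filled symbols where the adjusted p was under 0.05. Every value is positive, between 0.61 and 1.10 for BMP2 and between 0.29 and 0.52 for ID1, while the call changes with the fit.

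Among the ID genes, ID1 was by far the most abundant. It lies on chromosome 20 from 31605283 to 31606515 on the plus strand. ID1 was at 125, 144 and 124 CPM in the siControl libraries and at 173, 204 and 148 CPM in the siDAB2IP libraries, from 2007 to 3105 and from 2565 to 3681 counts. The groups did not overlap, and the smallest gap was between siControl replicate 2 and siDAB2IP replicate 3. The means were 131 ± 11.3 and 175 ± 27.6 CPM (SD, n = 3), and the fitted log2 FC was 0.42 (SE 0.13, 95% interval 0.13 to 0.70). The edgeR adjusted p of 0.0553 missed the threshold. Within libraries of the same replicate number the log2 ratio was 0.47, 0.50 and 0.26. With the replicate number as a block ID1 passed the threshold (log2 FC 0.41, edgeR adjusted p = 0.014), and it also did with DESeq2 (adjusted p = 0.0282) and without siDAB2IP replicate 3 (log2 FC 0.52, edgeR adjusted p = 0.00689). Omitting any of the other 5 libraries left it short of the threshold, at edgeR adjusted p between 0.10 and 0.175 and log2 FC down to 0.29.

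ID2, on chromosome 2 from 8678845 to 8684453 on the plus strand, did not pass the threshold, and its estimate was less precise than that of ID1. It was at 3.55, 4.59 and 6.16 CPM in the siControl libraries and at 4.62, 5.75 and 8.80 CPM in the siDAB2IP libraries. The groups overlapped, although the siDAB2IP library was higher for each of the 3 replicate numbers, with log2 ratios of 0.38, 0.33 and 0.52. The log2 FC was 0.42 with a 95% interval of −0.21 to 1.05 (edgeR adjusted p = 0.354), and 0.121 was the adjusted p with the replicate block. Omitting siDAB2IP replicate 3 moved the log2 FC to 0.12 and omitting siControl replicate 1 moved it to 0.23, and the highest value on omitting a library was 0.63. ID2 overlaps ID2-AS1 on the opposite strand, which had at most 11 counts in a library.

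ID3 lies on chromosome 1 from 23557918 to 23559794 on the minus strand. It was at 47.2, 49.0 and 57.1 CPM in the siControl libraries and at 39.9, 51.6 and 67.7 CPM in the siDAB2IP libraries. The siDAB2IP libraries included both the lowest and the highest value. The log2 FC was 0.05 with a 95% interval of −0.33 to 0.44 (edgeR adjusted p = 0.87), and the log2 ratio within a replicate number was −0.24, 0.08 and 0.25. ID4, on chromosome 6 from 19837386 to 19840684, had 0 counts in 5 libraries and 1 count in siDAB2IP replicate 2. A count of 0 allows up to 0.139 to 0.187 CPM in these libraries, a limit that covers counting error only, and ID4 was therefore not detected above this limit in either group.

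Read per gene length, ID1 made up 78.4%, 79.9% and 74.4% of the summed FPKM of the 4 ID genes in the siControl libraries and 85.2%, 84.0% and 74.3% in the siDAB2IP libraries. The share was higher in 2 of the 3 knockdown libraries, and the groups overlapped (two-sided exact permutation test, p = 0.4). The ratio of ID1 to ID3 was 3.77 ± 0.568 in siControl and 5.09 ± 1.66 in siDAB2IP (SD, n = 3; two-sided exact permutation test, p = 0.3). With knockdown the ratio was higher for each of the 3 replicate numbers, from 3.85 to 6.31, from 4.29 to 5.75 and from 3.16 to 3.20, with little difference for the third. The summed FPKM of the ID genes was 128, 145 and 134 in siControl and 163, 194 and 160 in siDAB2IP, without overlap (two-sided exact permutation test, p = 0.1, which is the lowest p this test can give with 3 libraries a group).

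**Figure D3:**
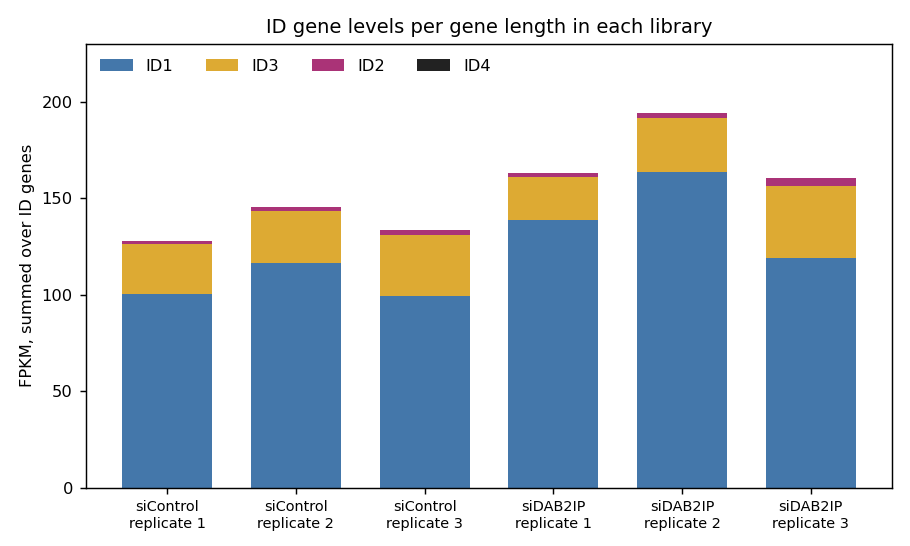
FPKM of the ID genes (y axis, from 0), stacked for each of the 6 libraries. ID1 (blue) makes up 74.3% to 85.2% of each bar, ID3 (yellow) most of the rest, and ID2 (purple) between 1.25% and 2.46%, while ID4 is not visible.

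The upstream sequence of ID1 and ID3 is given for the most abundant ID gene, whose groups did not overlap, and for the next most abundant, whose groups did. The sequences are the 250 bases before the RefSeq start site on GRCh38.p14, and 9 of the 10 genes, all but BMP2, were matched to such a window. The RefSeq start of ID3 differs from the gene end in the count table. Its window therefore lies within the gene as placed there, from 23557918 to 23559794. Capitals mark the GC-rich SMAD motif GGAGCC (or its reverse complement GGCTCC) and the SMAD-binding core CAGAC, which were searched on both strands together with GGCGCC and the E-box CANNTG.
ID1, chr20:31605039-31605288, plus strand: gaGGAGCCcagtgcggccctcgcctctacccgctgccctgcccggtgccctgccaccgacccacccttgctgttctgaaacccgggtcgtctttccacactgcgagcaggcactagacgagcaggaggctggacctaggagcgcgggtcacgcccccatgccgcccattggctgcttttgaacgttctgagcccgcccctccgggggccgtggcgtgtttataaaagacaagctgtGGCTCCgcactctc
ID3, chr1:23559502-23559751, minus strand: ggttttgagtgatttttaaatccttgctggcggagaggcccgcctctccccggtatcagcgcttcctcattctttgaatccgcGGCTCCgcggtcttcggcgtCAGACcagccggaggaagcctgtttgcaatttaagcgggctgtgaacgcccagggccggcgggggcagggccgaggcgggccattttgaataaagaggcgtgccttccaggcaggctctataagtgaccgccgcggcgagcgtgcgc
GGAGCC was found 2 times in the window of ID1, 248 and 14 bases before the start, and 1 time in that of ID3. CAGAC was found 1 time in the window of ID3. In the 250 bases before the start, GGAGCC was also found 3 times for SMAD6, 2 times for ID4 and 1 time for BMPR2. It was found 1 time in only 1 window of BMP4 and 0 times in those of ID2, BMPR1A and GREM1. Sequence farther upstream was not searched. In windows of 300 bases around all 35116 listed start sites, 36.0% held GGAGCC, 45.3% CAGAC, 19.2% GGCGCC and 68.7% the E-box. These matches are a description of the letters and not of binding.

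Both receptor genes were expressed in every library, and neither passed the threshold. BMPR1A, a type I receptor gene on chromosome 10 from 86756601 to 86932838, was at 67.6, 82.1 and 80.6 CPM in the siControl libraries and at 81.2, 78.5 and 66.5 CPM in the siDAB2IP libraries. The groups overlapped, with a log2 FC of −0.026 (95% interval −0.28 to 0.23, edgeR adjusted p = 0.91). BMPR2, the type II receptor gene on chromosome 2 from 202376936 to 202567751, was at 87.5, 96.9 and 102 CPM in siControl and at 98.3, 112 and 98.8 CPM in siDAB2IP. Its log2 FC was 0.11 (95% interval −0.12 to 0.33, edgeR adjusted p = 0.517). The intervals of both receptors exclude a change as large as that estimated for BMP2, but not a smaller one.

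Of the inhibitors, SMAD6 encodes an inhibitory SMAD that is itself a target of the pathway, and lies on chromosome 15 from 66702228 to 66782848. It was at 3.55, 3.99 and 5.22 CPM in the siControl libraries and at 2.82, 5.36 and 6.83 CPM in the siDAB2IP libraries, which included the lowest and the highest value. The log2 FC was 0.23 (95% interval −0.45 to 0.92, edgeR adjusted p = 0.664). GREM1, which encodes the secreted antagonist gremlin, lies on chromosome 15 from 32717974 to 32745107 and had 0, 2 and 1 counts in the siControl libraries and 0, 0 and 4 counts in the siDAB2IP libraries. It did not pass the filter and was not tested.

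By FPKM, which allows genes to be ordered within a library, the siControl libraries had ID1 at 105 ± 9.42, ID3 at 28.2 ± 2.89, BMPR2 at 7.96 ± 0.613, BMPR1A at 6.68 ± 0.702, BMP2 at 4.98 ± 1.33, ID2 at 2.14 ± 0.590, SMAD6 at 0.493 ± 0.10 and BMP4 at 0.176 ± 0.110 FPKM (SD, n = 3), followed by GREM1 and ID4. Of these neighbors, BMPR1A and BMP2 overlapped in their ranges, as did GREM1 and ID4. The order rests on the deposited gene lengths, such as 11412 bases for BMPR1A and 3601 bases for BMP2. Which transcripts of a gene were expressed was not examined. In the siDAB2IP libraries BMP2 was at 9.35 ± 3.15 FPKM (SD, n = 3), above the mean of BMPR2 at 8.57 ± 0.624 FPKM (SD, n = 3), although BMP2 exceeded BMPR2 in only 1 of the 3 libraries.

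For each expressed ID gene, the 3 genes with the closest profile across the 6 libraries were taken from 14072 genes by the root mean square difference of mean-centered log2 CPM. For ID1 they were METTL5 (0.044), LSM2 (0.044) and PSMD14 (0.058), which encode an RNA methyltransferase, a component of RNA-processing complexes and a proteasome subunit. For ID2 they were SLC35A1 (0.059), TMEM138 (0.098) and ZNF708 (0.10), and for ID3 ZNF274 (0.061), ANKRD18A (0.068) and PRAG1 (0.069). No gene of the BMP pathway was among these 9, and METTL5, LSM2 and PSMD14 had adjusted p between 0.0823 and 0.0887 from edgeR.

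The rest of the pathway was read from 61 further genes, grouped by role. Of these, 39 were tested, and 2 rose and 5 fell, or 5.13% and 12.8% against 6.55% and 7.65% of all genes tested. 24 of the 39 had a negative log2 FC, and the median was −0.14, against 0.01 for all genes tested. Between the groups, 18 of the 39 (46.2%) showed no overlap, 5 wholly higher and 13 wholly lower with knockdown, against 17.6% and 18.3% of all genes tested (35.9% in either direction). With the replicate block 5 rose and 7 fell, against 9.59% and 11.4% of all genes in that fit. The 22 genes that were not tested had at most 12 counts in a library, and 9 of them had 0 counts in every library. Among them were 9 of the 12 other ligand genes and 10 of the 15 antagonist genes.

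**Figure D4:**
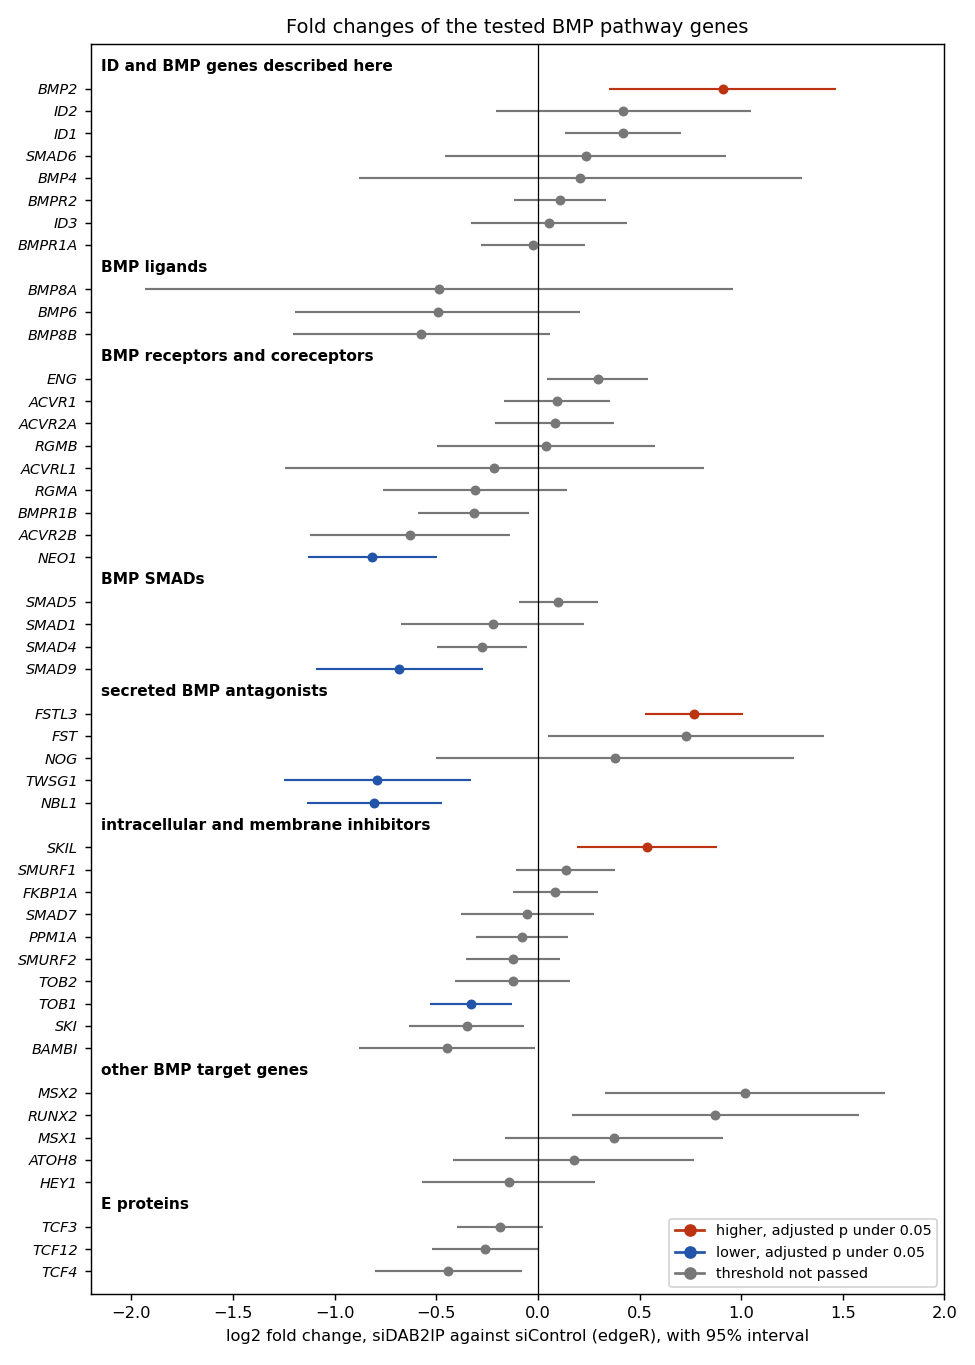
Log2 fold change (x axis) for siDAB2IP against siControl with its 95% interval for the 8 tested members and the 39 other tested genes of the pathway, grouped by role. Red marks genes that rose (BMP2, FSTL3 and SKIL), blue genes that fell (NEO1, SMAD9, TWSG1, NBL1 and TOB1), and gray genes that did not pass the threshold.

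Of the 15 secreted antagonist genes 5 were tested. FSTL3 rose, NBL1 and TWSG1 fell, and FST and NOG did not pass the threshold, against 6.55% of all genes tested that rose and 7.65% that fell. FSTL3, which encodes a follistatin-like protein that binds activins and related ligands, was the most abundant at 90.8 ± 6.69 FPKM (SD, n = 3) in siControl. It rose from 268, 269 and 305 CPM to 482, 510 and 441 CPM (log2 FC 0.77, SE 0.11, edgeR adjusted p = 0.00285), and kept its call in 15 of 15 alternative fits. NBL1, which encodes the BMP antagonist DAN, fell from 260, 302 and 275 CPM to 167, 188 and 124 CPM (log2 FC −0.81, SE 0.15, edgeR adjusted p = 0.00808). For neither FSTL3 nor NBL1 did the groups overlap. NBL1 overlaps the tested genes MINOS1 and AL031727.1 on the same strand, and they held 732 and 79 counts in all against 23887 for NBL1. TWSG1, which encodes a modulator that binds BMPs together with chordin, fell from 72.4 ± 19.2 to 41.9 ± 9.30 CPM (SD, n = 3; log2 FC −0.79, edgeR adjusted p = 0.0324), and its call was lost on omitting any of siControl replicates 2 and 3 and siDAB2IP replicate 1, with adjusted p of up to 0.104. FST had a log2 FC of 0.73 and NOG one of 0.38.

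Of the other receptors and coreceptors, 9 of 10 were tested, and 1 fell and 0 rose. Of all genes tested, 7.65% fell and 6.55% rose. At an unadjusted edgeR p under 0.05, 1 was higher (ENG) and 3 were lower (NEO1, ACVR2B and BMPR1B). This p was reached by 30.0% of all genes tested in either direction. DESeq2 called 0 higher and 2 lower (NEO1 and ACVR2B), against 16.6% of all genes in either direction. The replicate block called 1 higher (ENG) and 2 lower (NEO1 and ACVR2B), against 9.59% and 11.4% of all genes. NEO1, which encodes neogenin, a receptor that binds the BMP coreceptors of the RGM family, fell from 113, 106 and 95.9 CPM to 70.4, 61.5 and 47.0 CPM (log2 FC −0.81, SE 0.14, edgeR adjusted p = 0.0064). Its groups did not overlap. The most abundant gene of this group was ENG, the gene of the coreceptor endoglin, with a log2 FC of 0.29 (edgeR adjusted p = 0.107; 0.046 with the replicate block), and it overlaps a tested gene on the opposite strand. ACVR2B, a type II receptor gene, had a log2 FC of −0.63 (edgeR adjusted p = 0.0854; 0.0261 with the replicate block and 0.0387 with DESeq2), and one of −0.40 without siDAB2IP replicate 3. The type I receptor gene BMPR1B had a log2 FC of −0.32 (edgeR adjusted p = 0.113).

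All 4 SMAD genes that carry the signal were tested, and 1 fell and 0 rose, against 7.65% and 6.55% of all genes tested. At an unadjusted edgeR p under 0.05, 0 were higher and 2 lower (SMAD9 and SMAD4), against 30.0% of all genes in either direction. DESeq2 called 0 higher and 1 lower (SMAD9), against 16.6% of all genes in either direction. SMAD9 fell from 6.41, 6.44 and 5.98 CPM to 4.0, 4.26 and 3.47 CPM (log2 FC −0.68, SE 0.18, edgeR adjusted p = 0.0363). The call for SMAD9 was lost in each of the 6 fits that left out 1 library, with adjusted p between 0.0537 and 0.131. SMAD5, the most abundant at 12.3 ± 0.374 FPKM (SD, n = 3) in siControl, had a log2 FC of 0.10 (edgeR adjusted p = 0.495), and SMAD4 one of −0.27 (edgeR adjusted p = 0.0949).

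All 10 intracellular and membrane inhibitors were tested, and 1 rose and 1 fell, against 6.55% and 7.65% of all genes tested. These counts are near the background. SKIL, which encodes the SMAD corepressor SnoN, rose from 20.3, 24.7 and 27.3 CPM to 29.6, 34.1 and 41.3 CPM (log2 FC 0.54, SE 0.15, edgeR adjusted p = 0.045). TOB1, which encodes an antiproliferative protein that binds SMADs, fell from 72.2, 65.6 and 66.9 CPM to 55.8, 52.5 and 54.6 CPM (log2 FC −0.33, SE 0.09, edgeR adjusted p = 0.0386). Each of these calls was lost in 5 of the 6 fits that left out 1 library, for SKIL in all but that without siDAB2IP replicate 1 and for TOB1 in all but that without siDAB2IP replicate 3, with adjusted p of up to 0.166 and 0.103. TOB1 overlaps the tested gene TOB1-AS1 on the opposite strand. SMAD7, the other inhibitory SMAD gene, had a log2 FC of −0.05 (edgeR adjusted p = 0.85). FKBP1A, the most abundant of this group, had one of 0.09, and BAMBI, which encodes a pseudoreceptor, had one of −0.45 (edgeR adjusted p = 0.155; 0.0386 with the replicate block).

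Of 7 other target genes of the pathway 5 were tested, and 0 passed the threshold. At an unadjusted edgeR p under 0.05, 2 were higher and 0 lower, near the 30.0% of all genes tested that reached it in either direction. DESeq2 called only MSX2 and RUNX2, both higher, against 16.6% of all genes in either direction. The replicate block called the same genes higher, against 9.59% of all genes that rose in that fit. MSX2, a homeobox gene, was at 2.05, 2.23 and 1.52 CPM in siControl and at 2.53, 3.98 and 5.33 CPM in siDAB2IP, without overlap (log2 FC 1.02, SE 0.31, edgeR adjusted p = 0.0539; 0.0463 with the replicate block and 0.0353 with DESeq2). RUNX2, a transcription factor gene known from bone, had a log2 FC of 0.87 (edgeR adjusted p = 0.0949; 0.0124 with the replicate block and 0.0375 with DESeq2), its groups overlapped, and it shares its locus with SUPT3H on the opposite strand. RUNX2 did not pass in any of the 6 fits that left out 1 library, and its log2 FC was 0.50 without siDAB2IP replicate 3. MSX2 passed in 1 of these 6 fits, that without siDAB2IP replicate 1. HEY1, the most abundant of these targets, had a log2 FC of −0.14. Of the 12 other ligand genes 3 were tested, and 0 passed the threshold (0 at an unadjusted edgeR p under 0.05, and 0 with DESeq2). BMP8B, the most abundant of them, was at 3.80 ± 0.216 CPM in siControl and 2.55 ± 0.919 CPM in siDAB2IP (SD, n = 3; edgeR adjusted p = 0.208) and overlaps PPIE on the opposite strand.

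The 3 E protein genes, whose products are the partners of the ID proteins, all had negative log2 fold changes, and 0 passed the threshold. Of all 15430 genes tested, 7546 had a negative log2 fold change. At an unadjusted edgeR p under 0.05, 1 of the 3 was lower (TCF4), against 30.0% of all genes in either direction. DESeq2 called 0 of them, against 16.6% of all genes. The log2 FC was −0.19 for TCF3 (95% interval −0.40 to 0.03, edgeR adjusted p = 0.226), −0.44 for TCF4 (95% interval −0.80 to −0.08, edgeR adjusted p = 0.0978) and −0.26 for TCF12 (95% interval −0.52 to 0.00, edgeR adjusted p = 0.168). TCF3 was the most abundant at 23.9 ± 1.12 FPKM (SD, n = 3) in siControl, and TCF4 the least abundant at 0.494 ± 0.057 FPKM (SD, n = 3).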

How the data were processed

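The RNA-Seq libraries were 3 siControl and 3 siDAB2IP libraries of MCF10A. The deposited values were unnormalized read counts of each gene, made by the authors, and FPKM values made by the authors, in which each count is divided by gene length and by a scaled library total of 98.9% to 104.7% of the library's counts. The submitters' processing notes name STAR 2.6.1d, featureCounts 1.5.0-p3, DESeq2 1.20.0, edgeR 3.24.3 and the build hg38, without their roles. The strand used in counting is not given in the sources used here, so values of overlapping genes are uncertain.

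The read counts were fitted with edgeR 4.0.16 under R 4.3.3 (filterByExpr, TMM, glmQLFit, glmQLFTest, Benjamini-Hochberg adjustment over 15430 genes). The scripts were tested on simulated counts. Standard errors were derived from the F statistic, and 95% intervals from its degrees of freedom. Alternatives were DESeq2 1.42.0, its size factors in edgeR, library size only, other count filters, the replicate block, limma 3.58.1 on FPKM (as log2 with 1 or 0.1 added), and omission of single libraries.

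Replicate numbers 1, 2 and 3 occur in either group. Deviations of log2 CPM from the group means correlated at 0.26, 0.15 and 0.25 between libraries of the same number and at −0.28 to 0.02 between others. As deviations sum to 0 within a group, positive values for the same number push the other values down. The contrast between them is therefore partly built in. Library names share a letter between the groups for each number, but the labels do not state a pairing. Pairing by number was thus assumed from the data.

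The genes, lists and tests were chosen with earlier results of these data known. Named were DAB2IP, the 10 genes, the called and the most abundant genes of each list, the E protein genes and the genes closest in profile to each ID gene. Genes named outside this rule (such as MSX2, RUNX2, ACVR2B, BMPR1B, SMAD4, SMAD7, BAMBI, FST and NOG) were chosen after their values were seen. Protein sequences were not used here.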

Additional observations from a re-analysis of the deposited data

How the results depend on the processing

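Of the 8 members tested, BMP2, BMPR2, ID1 and ID2 kept a positive log2 fold change in every alternative fit. BMP2 passed the threshold in 7 of 15 alternatives, ID1 in 5 of 15, and the other 6 in none. The number of members that rose was 1. It was 2 with DESeq2, library size only, no filter and the replicate block, 0 in each limma fit on FPKM (1 or 0.1 added), and 0 to 1 without single libraries, and 0 members fell in any fit. With the replicate block no other call among the members changed. Of the other pathway genes, 4 rose with DESeq2, 4 with no filter, 5 with the replicate block, 1 with at least 10 counts in every library, 1 in each limma fit on FPKM and 1 to 3 without single libraries. The number that fell was 5 in the main fit, 6 with DESeq2, 6 with no filter and 7 with the replicate block. It was 3 with limma on genes of a mean FPKM of at least 1 and 0 with limma on all genes with a count. Without single libraries it was 2 to 5. Over all genes, 1011 rose and 1181 fell in the main fit, 1098 and 1374 with DESeq2, and 1245 and 1692 with no filter. With the replicate block 1479 rose and 1754 fell, and 914 and 1259 did with at least 10 counts in every library. With limma on log2(FPKM + 0.1) 659 rose and 758 fell, and 176 and 202 with limma on all genes with a count. Without single libraries 264 to 1172 rose and 459 to 1352 fell. The sign was not stable for genes near 0. Without single libraries the log2 fold change ranged from −0.10 to 0.81 for BMP4, from −0.13 to 0.056 for BMPR1A, from −0.16 to 0.22 for ID3, from −0.052 to 0.52 for SMAD6 and, without a change of sign, from 0.12 to 0.63 for ID2, and BMPR1A was at 0.0087 with library size only. The fits that leave out a library have fewer samples, and the cause of the other differences was not tested. Counts limit BMP4, ID4 and GREM1, which had at most 16 counts in a library.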
